A study of Mus musculus with 4 samples.

Results

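Il17a, Il17f, Il22, Il21, Il23r, Il17ra, Tmem176a, Tmem176b and Ccl20 are genes of the IL-17 response: cytokines of the Th17 type of helper T cell, receptors of that axis, a chemokine and a pair of membrane proteins. They were followed in activated mouse CD4+ T cells with and without Setd2. The 9 genes were taken by symbol from a table of 18560 genes, and each matched 1 line. They were chosen by their knockout and wild type values, the same counts and expression values that are given below. Their differences between genotypes are therefore described with their error, and no p-value is given for them.

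The knockout cells carried a Setd2 deletion made with a Cre recombinase under Cd4 control (genotype label Setd2-CD4 cre, replicates 9 and 12), and the others were wild type (replicates 1 and 6). All 4 libraries came from naive CD4+ T cells of C57BL/6 spleen stimulated through CD3 and CD28 into Th0 cells, that is, activated without cytokines that steer them toward Th17. Cd4 is already transcribed in thymocytes that carry both CD4 and CD8, so such a Cre deletes in CD8 T cells and in T cells of the natural killer type as well. The labels do not say whether the wild type cells carried Cre or floxed alleles, nor whether each library was a separate animal, and they give the stimulation as 3 days in the treatment field, 2 days in the design text and 48 in the titles. Setd2, the enzyme that trimethylates lysine 36 of histone H3, was read at 127 and 113 CPM in knockout and 157 and 175 CPM in wild type libraries, but a gene-level count also holds exons outside any deletion and checks no label. The libraries held between 17284613 and 20418766 counts. CD4 T cell genes were high in all of them, with the 8 markers of that type summing to 3238 and 3311 CPM in knockout and 3272 and 3398 CPM in wild type libraries, but 6 of the 8 were lower in both knockout libraries (median log2 fold change -0.37) and Thy1 was higher, at 1105 and 1258 CPM in knockout and 781 and 608 CPM in wild type libraries. CPM are counts scaled to library size with TMM factors, and replicate spread is given as SD with n = 2 per group. No label names a batch, so the spread within a group may be technical or biological.

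As background, Th17 cells are induced by IL-6 or IL-21 together with TGF-beta and are maintained by IL-23. They release IL-17A and IL-17F, which act on epithelial and stromal cells through a receptor that contains IL-17RA, and IL-22, which acts on epithelia. These cytokines call in neutrophils and defend mucosal surfaces, and they also drive autoimmune tissue damage. In mice the same cytokines are made without priming by some gamma-delta T cells and by innate lymphoid cells.

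The starts of 3 of the genes are shown because they belong to the cytokine pair and to the IL-23 receptor, the genes that define the response. Each line holds the 250 bases before an annotated start of the gene, 5′ to 3′ on its strand, from RefSeq on GRCm38.p6. The windows are chr1:20730655-20730904 (plus strand) for Il17a, chr1:20784271-20784520 (minus strand) for Il17f and chr6:67491856-67492105 (minus strand) for Il23r. Those of Il17a and Il23r border the gene spans given below. That of Il17f lies inside its gene span, which reaches 20785274, so the start used for Il17f is not the outer end of that span. Capitals mark matches, on either strand, to the half-site that many nuclear receptors bind (AGGTCA), to AP-1 (TGANTCA), to a STAT site (TTCNNNGAA) and to RUNX (TGTGGT).
Il17a: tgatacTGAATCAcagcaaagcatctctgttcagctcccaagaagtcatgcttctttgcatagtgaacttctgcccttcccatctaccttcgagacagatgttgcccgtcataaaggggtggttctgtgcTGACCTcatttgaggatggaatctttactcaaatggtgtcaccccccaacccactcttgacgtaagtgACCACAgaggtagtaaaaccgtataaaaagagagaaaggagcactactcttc
Il17f: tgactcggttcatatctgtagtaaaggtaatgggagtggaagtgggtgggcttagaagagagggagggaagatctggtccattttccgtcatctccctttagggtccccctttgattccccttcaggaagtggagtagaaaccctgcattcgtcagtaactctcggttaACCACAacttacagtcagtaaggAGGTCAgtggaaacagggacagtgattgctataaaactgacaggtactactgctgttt
Il23r: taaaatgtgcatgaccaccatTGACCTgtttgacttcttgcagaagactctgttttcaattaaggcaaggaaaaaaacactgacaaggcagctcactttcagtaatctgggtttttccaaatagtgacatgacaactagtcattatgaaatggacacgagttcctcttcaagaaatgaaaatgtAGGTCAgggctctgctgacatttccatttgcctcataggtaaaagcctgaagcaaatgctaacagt
Il17a has 1 nuclear receptor half-site, whose base nearest the start lies 115 bases before it, besides 1 AP-1 and 1 RUNX match. Il17f has 1 nuclear receptor half-site at 53 bases and 1 RUNX match at 76 bases. Il23r has 2 nuclear receptor half-sites, at 224 and 61 bases, with no match to the other 3 motifs. No 2 of the marked matches overlap. Of the 8 genes with an entry in the promoter table (Il17ra has none), 4 hold a nuclear receptor half-site in such a window, namely these 3 and Ccl20. A RUNX match is held by 3 of the 8 (Ccl20, Il17a and Il17f), an AP-1 match by 1 (Il17a) and a STAT match by 0. The 8 genes have 11 windows, so these counts by gene are not like the shares of windows that follow. Of all 32851 such windows, 14.0% hold a nuclear receptor half-site, 6.75% the AP-1 motif, 7.02% the STAT motif and 14.0% the RUNX motif. A match of this kind is a run of letters and was not tested as a binding site.

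Among the members that could be fitted, the IL-17 and IL-22 cytokine genes had the largest fold changes. Il17a (gene 16171, chromosome 1, 20730905 to 20734496), the gene of IL-17A, stood at 79.4 and 169 CPM in knockout libraries, against 5.80 and 9.51 CPM in wild type libraries. The lower knockout library was 8.35 times the higher wild type library, so the groups were far apart. The fitted log2 fold change of Il17a was 4.02 (SE 0.45), or 16.2-fold.

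Il17f (gene 257630, chromosome 1, 20777146 to 20785274), the gene of the related cytokine IL-17F, stood at 11.1 and 26.2 CPM in knockout libraries, against 1.58 and 0.405 CPM in wild type libraries. Both knockout values lay above both wild type values. Wild type replicate 6 held 8 counts of Il17f, for which the exact Poisson 95% interval, covering counting error only, was 0.175 to 0.797 CPM. The fitted log2 fold change was 4.23 (SE 0.68), and it was 3.48 without knockout replicate 12. Leaving out wild type library 1 gave 5.52 for Il17f, and leaving out library 6 of that genotype gave 3.56.

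Il22 (gene 50929, chromosome 10, 118204584 to 118210047), the gene of IL-22, stood at 15.7 and 55.3 CPM in knockout libraries, against 2.70 and 1.62 CPM in wild type libraries. The groups did not overlap, and knockout replicate 12 was 3.52 times knockout replicate 9. The fitted log2 fold change was 4.04 (SE 0.63). It was 2.86 without knockout replicate 12 and 4.67 without knockout replicate 9.

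The size of the Il22 difference depends on whether the counts of a close copy are added. Iltifb, a close copy of Il22 on the same chromosome, was given 0 counts in either knockout library, against 20.16 and 19.6 counts in wild type libraries. In wild type libraries Il22 itself held 52.84 and 32.4 counts, and the sums of the pair were whole, at 73 and 52. The counting tool RSEM thus divided shared reads between the pair there, and the wild type values of Il22 alone depend on that division. Reads of such copies cannot be told apart with certainty, and whether the Iltifb counts are reads of Il22 was not tested. In wild type libraries the Iltifb counts made up 27.6% and 37.7% of the summed counts of the pair. With both genes added together the sum was 15.7 and 55.3 CPM in knockout libraries and 3.71 and 2.63 CPM in wild type libraries, and its fitted log2 fold change was 3.48 (SE 0.60), an alternative chosen after the values were seen. The groups did not overlap in the sum either.

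Il21 (gene 60505, chromosome 3, 37222759 to 37232636) encodes IL-21, which T cells of the follicular helper and Th17 types use to reinforce their own programme. It stood at 36.5 and 61.6 CPM in knockout libraries and at 49.2 and 41.0 CPM in wild type libraries. The knockout values lay on either side of the wild type values. The log2 fold change of 0.12 (SE 0.29) was smaller than its error, and it was -0.31 without knockout replicate 12 and -0.0076 without wild type replicate 6.

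**Figure D1:**
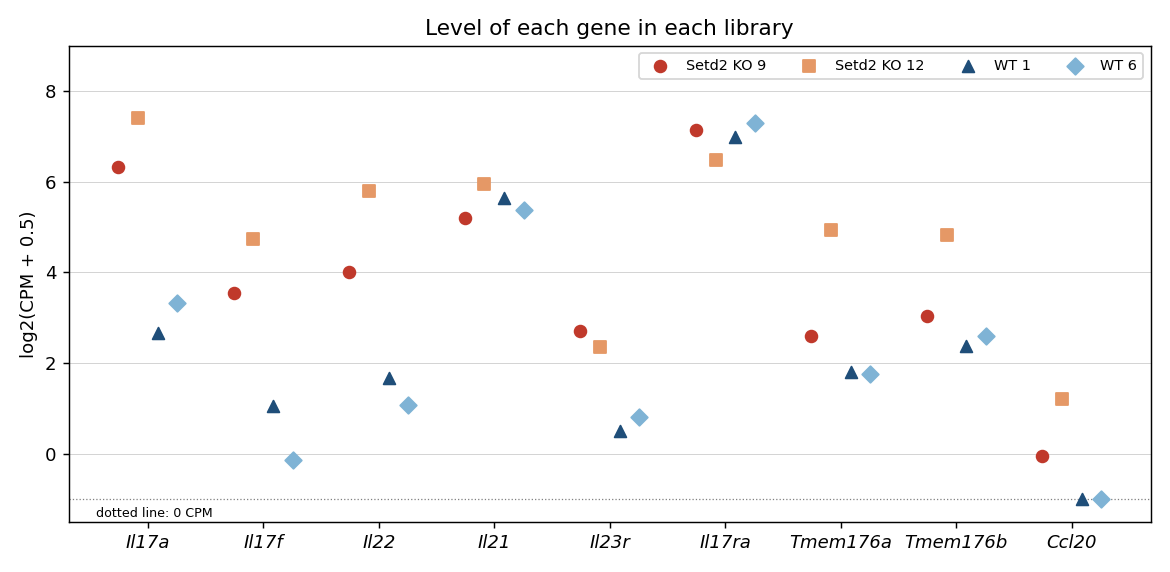
Level of each of the 9 genes in each library, as log2(CPM + 0.5) on the vertical axis, with the 2 knockout libraries left of the 2 wild type libraries for each gene and a dotted line at 0 CPM. The knockout points of Il17a, Il17f, Il22, Il23r, Tmem176a, Tmem176b and Ccl20 lie above the wild type points, while those of Il21 and Il17ra overlap them.

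The receptor genes differed from each other. Il23r (gene 209590, chromosome 6, 67422932 to 67491855), which encodes the chain that gives the IL-23 receptor its specificity, stood at 6.03 and 4.59 CPM in knockout libraries, against 0.916 and 1.26 CPM in wild type libraries. It was the member of the separated group with the closest agreement between knockout libraries, whose ratio (replicate 12 over replicate 9) was 0.762. The fitted log2 fold change was 2.28 (SE 0.49) on 104 and 89 counts in knockout and 18 and 25 counts in wild type libraries. Il12rb2, its neighbour 46638 bases away and the signalling chain of the IL-12 receptor, stood at 878 and 455 CPM in knockout and 505 and 860 CPM in wild type libraries, with a log2 fold change of -0.03 (SE 0.37, edgeR adjusted p 0.975). Its groups overlapped.

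Il17ra (gene 16172, chromosome 6, 120463181 to 120483731) encodes the receptor chain shared by several IL-17 cytokines and is transcribed in most leukocytes. Its level was 142 and 89.2 CPM in knockout libraries and 126 and 156 CPM in wild type libraries. Knockout replicate 9 lay between the wild type libraries and replicate 12 below them. The log2 fold change of -0.29 (SE 0.28) was close to the size of its error. It was -0.67 without knockout replicate 9 and 0.0028 without knockout replicate 12. The counts of Il17ra and Il21 were not whole in any library, nor were those of Il22 in the wild type libraries. This shows that RSEM assigned part of their reads jointly with other gene models. Over all genes, 63.0% had whole counts in all 4 libraries.

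Tmem176a and Tmem176b encode small membrane proteins related to the MS4A family, which form ion channels of intracellular membranes and are high in mouse Th17 and dendritic cells. Tmem176a (gene 66058, chromosome 6, 48841483 to 48845364) was measured at 5.57 and 30.3 CPM in knockout libraries, against 3.001 and 2.88 CPM in wild type libraries. Tmem176b (gene 65963, chromosome 6, 48833811 to 48845948) was measured at 7.72 and 27.7 CPM in knockout libraries, against 4.68 and 5.51 CPM in wild type libraries. For both genes the groups did not overlap, but knockout replicate 12 was far above the other 3 libraries and replicate 9 little above wild type.

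The fitted log2 fold changes were 2.61 (SE 0.72) for Tmem176a and 1.80 (SE 0.56) for Tmem176b. Without knockout replicate 12 they were 0.92 and 0.60, and without knockout replicate 9 they were 3.35 and 2.43. The annotated span of Tmem176a lies inside that of Tmem176b on the other strand, and the sources used here do not say whether reads were counted by strand. The counts of both genes were whole in each library, as were those of 63.0% of all genes, so no division of reads between them shows. Whether reads of one gene were counted for the other was not tested. The ratio of Tmem176a to Tmem176b, in FPKM (counts scaled by gene length and library size), was 0.775 and 1.19 in knockout libraries and 0.740 and 0.618 in wild type libraries.

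Ccl20 (gene 20297, chromosome 1, 83116766 to 83119167) encodes the chemokine that draws cells with the receptor CCR6, among them Th17 cells themselves. It had 8 and 35 counts in knockout libraries, which is 0.464 and 1.81 CPM, and 0 counts in either wild type library. A count of 0 over the wild type pair allows up to 3 counts, or 0.0761 CPM. The pooled knockout level, from 43 counts of which most came from replicate 12, was 15.4 times that floor. This ratio leaves out the counting error of the knockout libraries and the spread between them. It is therefore not a lower bound on the genotype difference. By the exact Poisson interval used for Il17f, the lower limits were 0.200 and 1.26 CPM in knockout replicates 9 and 12. The upper limits were 0.188 and 0.187 CPM in wild type libraries 1 and 6. The ratio to the floor was 6.1 without knockout replicate 12 and 23.7 without knockout replicate 9. With 3 counts allowed in the single remaining wild type library, it was 7.74 without library 1 and 7.7 without library 6. Ccl20 was the 1 member of the 9 that did not pass the filter on low counts, and no fit was made for it.

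**Figure D2:**
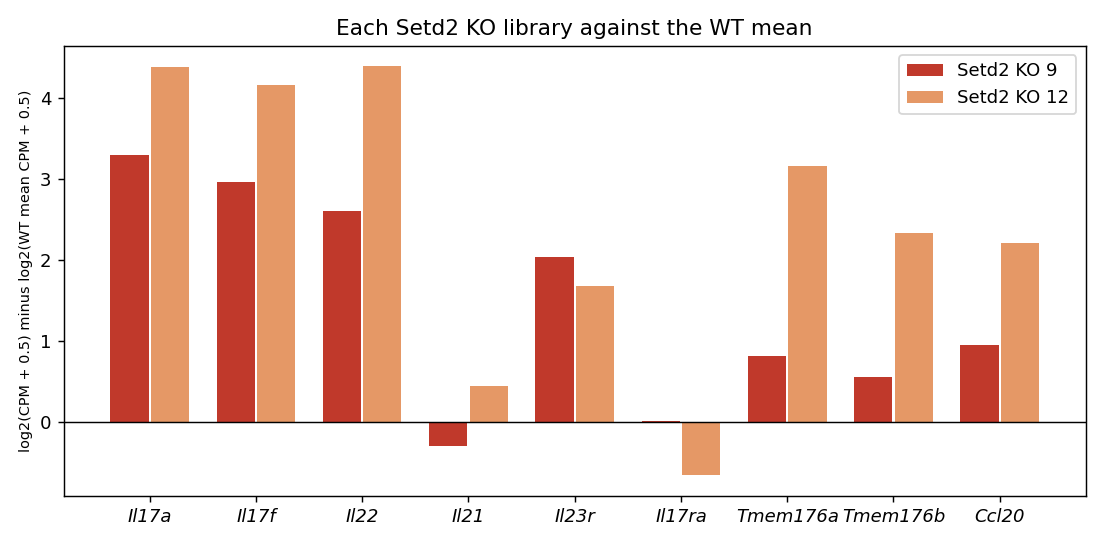
Difference of each knockout library from the wild type mean for the 9 genes, as log2(CPM + 0.5) minus the log2 of the wild type mean CPM plus 0.5, with bars from 0. Replicate 12 exceeds replicate 9 for all genes but Il23r and Il17ra, and for Tmem176a replicate 12 stood 10.3 times and replicate 9 1.89 times above the wild type mean. The Ccl20 bars rest on a wild type level of 0.

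Of the 8 members that passed the filter, 6 had no knockout value at or below a wild type value, as had 25.4% of all 12816 genes tested, 0 were separated in the lower direction, as were 24.3% of genes, and 2 overlapped. edgeR's quasi-likelihood test with Benjamini-Hochberg adjustment called 0 of the 8 at an adjusted p under 0.05, where it called 0.0078% of all genes in either direction, that is 1 gene. DESeq2 called 5 of the 8 higher and 0 lower, where it called 0.729% of genes higher and 0.804% lower. An unadjusted edgeR p under 0.05 was reached by 6 of the 8, all higher, and by 6.23% of genes in that direction. These counts rest on the contrast from which the genes were picked, so nothing is read from them.

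The knockout libraries also differed from each other. Replicate 12 over replicate 9 was 2.13 for Il17a, 2.35 for Il17f, 3.52 for Il22, 5.44 for Tmem176a, 3.59 for Tmem176b and 3.89 for Ccl20 in CPM. The same ratio was 1.69 for Il21, 0.762 for Il23r and 0.629 for Il17ra. Each IL-17 and IL-22 gene was nevertheless far above wild type in the lower knockout library. There Il17a stood at 10.4, Il17f at 11.2 and Il22, without the Iltifb counts, at 7.29 times the wild type mean. With knockout replicate 9 as the only knockout library the fitted log2 fold changes of Il17a and Il17f were 3.37 and 3.48, a fit that takes the spread of that single library from the wild type pair.

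Levels between genes were compared in FPKM. In knockout cells Il17a was the highest member at 103.5 ± 49.6 FPKM, followed by Il22 at 33.0 ± 25.1, Il17ra at 28.1 ± 10.03, Tmem176a at 16.3 ± 15.6, Il17f at 15.3 ± 8.38, Il21 at 15.2 ± 4.94, Tmem176b at 14.9 ± 11.5, Il23r at 2.08 ± 0.474 and Ccl20 at 1.40 ± 1.12 FPKM (SD, n = 2). The neighbours in that order from Il22 down to Tmem176b differed by less than the larger of their SDs, and so did Il23r and Ccl20. In wild type cells the order was Il17ra at 36.3 ± 6.89, Il21 at 14.8 ± 1.36, Il17a at 6.85 ± 2.59, Tmem176b at 4.30 ± 0.587, Tmem176a at 2.89 ± 0.0283, Il22 at 2.18 ± 0.573, Il17f at 0.865 ± 0.700 and Il23r at 0.45 ± 0.113 FPKM (SD, n = 2), with Ccl20 at 0. There Il17a and Tmem176b, and Il17f and Il23r, differed by less than the larger SD.

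Il17a was the highest of these genes in both knockout libraries, and it was below its receptor chain and Il21 in both wild type libraries. The ratio of Il17a to Il21 within a library, which does not depend on depth, was 5.87 and 7.43 in knockout and 0.318 and 0.626 in wild type libraries. Among all genes with a value above 0, Il17a stood at percentile 92.4 and 96.2 in knockout and 46.6 and 56.2 in wild type libraries. The ratio of Il17f to Il17a in FPKM was 0.137 and 0.153 in knockout and 0.271 and 0.0426 in wild type libraries, so the knockout ratios lay between the wild type ones. The ratio of Il22, without Iltifb, to Il17a was 0.222 and 0.366 in knockout and 0.514 and 0.204 in wild type libraries, which also overlap.

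Several members are neighbours in the genome. Il17a and Il17f lie 42649 bases apart on chromosome 1, and Mcm3, a subunit of the replicative helicase 17691 bases beyond Il17f, stood at 431 and 539 CPM in knockout and 435 and 336 CPM in wild type libraries (log2 0.33, SE 0.23, edgeR adjusted p 0.531). Mdm1, 35584 bases from Il22, had a log2 fold change of -0.29 (SE 0.23, edgeR adjusted p 0.568). Gimap3, an immune GTPase 62959 bases from Tmem176b, had -0.50 (SE 0.22, edgeR adjusted p 0.417), and Gpnmb on the other side 0.35 (SE 0.33, edgeR adjusted p 0.642). The tested genes next to Il21 were 4932438A13Rik (log2 -0.72, SE 0.30) and Cetn4 (0.49, SE 0.34), next to Il17ra Kdm5a (-0.71, SE 0.27) and Hdhd5 (-0.01, SE 0.22), and next to Ccl20 Agfg1 (-0.38, SE 0.20) and Trip12 (-0.23, SE 0.21). Pi15, the nearest tested gene below Il17a at 3099965 bases, had -0.64 (SE 0.78), and Rpia, above Il23r at 3273864 bases, 0.48 (SE 0.30). None of these neighbours other than members and Iltifb had a fold as large as that of the separated members beside them.

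The genes whose profile over the 4 libraries was nearest to that of Il17a, by Euclidean distance between centred log2(CPM + 0.5) values, were Timd2 (distance 0.709), Agpat4 (0.911), Il22 (1.07), Cxcl3 (1.16) and Ccdc184 (1.33). Timd2, which encodes a surface receptor of lymphocytes that binds ferritin and semaphorin 4A in mice, stood at 6.32 and 19.8 CPM in knockout and 0 and 0.101 CPM in wild type libraries. Agpat4, an acyltransferase of phospholipid synthesis, stood at 55.3 and 61.2 CPM in knockout and 4.78 and 4.75 CPM in wild type libraries, and it was the 1 gene called by edgeR (log2 3.61, SE 0.23, adjusted p 0.00559), a call lost without knockout replicate 12 (3.53, edgeR adjusted p 0.0737). Cxcl3, a chemokine that draws neutrophils, stood at 10.1 and 62.5 CPM in knockout and 1.17 and 1.16 CPM in wild type libraries. Ccdc184 stood at 4.93 and 7.54 CPM in knockout and 0.560 and 0.303 CPM in wild type libraries. Among the members Il17f ranked 6 in this order, Tmem176a 23, Il23r 38 and Tmem176b 58, whereas Il21 ranked 4892 and Il17ra 10038 of the tested genes. With 4 libraries such nearness is a description of these profiles.

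Genes around the members in the IL-17, IL-22, IL-23 and Th17 pathways were counted next. Of 110 listed genes other than members 89 were tested, and of these edgeR called 0 higher and 0 lower. DESeq2 called 3 higher and 5 lower of the 89, against 0.729% and 0.804% of all genes, and 9 were higher and 13 lower at an unadjusted edgeR p under 0.05, against 6.23% and 5.73% of all genes. Their median log2 fold change was -0.06, against 0.00 over all genes tested.

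The other IL-17 family genes were at or near the limit of detection. Of 7 measured, 2 were tested (median log2 fold change 0.99), with 0 called by edgeR, 1 higher and 0 lower at an unadjusted edgeR p, and no adjusted p given by DESeq2. Il17re, a receptor chain for IL-17C, had 0.870 and 1.24 CPM in knockout and 0.305 and 0.253 CPM in wild type libraries (log2 1.90, SE 0.79, edgeR adjusted p 0.416), and Il17rd 1.16 and 0.465 CPM in knockout and 0.356 and 1.16 CPM in wild type libraries. Il17rc, the partner of IL-17RA in the receptor for IL-17A and IL-17F, had 4 and 8 counts in knockout and 0 and 4 counts in wild type libraries. The ligand genes Il17b, Il17c and Il17d stood under 0.2 CPM in each library.

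Of 20 tested genes of IL-17 receptor signalling and its feedback, 0 were called by edgeR and 1 was lower in DESeq2, with 1 higher and 3 lower at an unadjusted edgeR p and a median log2 fold change of -0.13. The gene called by DESeq2 was Ikbke, a kinase of this and other inflammatory pathways, at 55.4 and 56.9 CPM in knockout and 92.1 and 124 CPM in wild type libraries (log2 -0.94, SE 0.23, edgeR adjusted p 0.327). Hsp90aa1, a chaperone that binds the adaptor of the receptor, had a log2 fold change of 0.93 (SE 0.32, edgeR adjusted p 0.412; 1.38 and 0.0489 when wild type library 1 was left out), and Traf3, an inhibitor of IL-17 receptor signalling, -0.54 (SE 0.20, edgeR adjusted p 0.413). Traf3ip2, which encodes the adaptor Act1 itself, stood at 33.1 and 33.9 CPM in knockout and 30.5 and 41.9 CPM in wild type libraries.

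Among 7 tested ligand and receptor genes related to IL-22 and IL-21, 0 were called by edgeR or DESeq2 and 1 was higher and 0 lower at an unadjusted edgeR p, with a median of 0.07. Il24, a cytokine of the IL-10 family like IL-22, stood at 11.4 and 57.4 CPM in knockout and 4.88 and 0.759 CPM in wild type libraries (log2 3.61, SE 1.14, edgeR adjusted p 0.413), with the knockout values above the wild type ones but spread widely inside each group. Il20rb had 0.79 (SE 0.49) and Il2rg, the common gamma chain, -0.26 (SE 0.25). The genes of IL-10, Il10, and of the IL-21 receptor, Il21r, overlapped between groups.

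In the IL-23 and IL-12 list 9 genes were tested, with 0 called by edgeR or DESeq2, 0 higher and 1 lower at an unadjusted edgeR p, and a median of -0.02. Il12rb1, which pairs with IL-23R, stood at 186 and 227 CPM in knockout and 209 and 209 CPM in wild type libraries (log2 -0.01, SE 0.21). The kinase gene Jak2 (-0.61, SE 0.25, edgeR adjusted p 0.414), Il27ra, the IL-27 receptor (-0.40, SE 0.21, 0.45) and Il12a, a subunit of IL-12 (1.04, SE 0.58, 0.458) had the smallest p. Stat3, through which IL-23 and IL-6 act, stood at 492 and 376 CPM in knockout and 411 and 419 CPM in wild type libraries. Il23a, the ligand subunit, was under 0.5 CPM in each library.

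Among the receptors and ligands that induce Th17 cells, 4 receptor genes stood lower in both knockout libraries. Of these, 3 had the smallest p, and the other was Tgfbr2 (log2 -0.50, SE 0.24, edgeR adjusted p 0.427). Of 10 tested genes, 0 were called by edgeR and 0 were higher and 3 lower in DESeq2, with the same counts at an unadjusted edgeR p and a median of -0.40. These were Il6st (44.0 and 33.3 CPM in knockout, 95.02 and 104 CPM in wild type), Il6ra (24.4 and 15.7 CPM in knockout, 52.2 and 61.4 CPM in wild type) and Tgfbr1, a chain of the TGF-beta receptor (16.9 and 14.7 CPM in knockout, 32.7 and 32.9 CPM in wild type). Their edgeR adjusted p values were 0.238, 0.261 and 0.275, with log2 fold changes of -1.36 (SE 0.23), -1.5 (SE 0.27) and -1.05 (SE 0.22). Leaving out wild type library 1 made Il6st and Il6ra calls in edgeR (adjusted p 0.0317 and 0.0192). Il1r1, the receptor for IL-1, which promotes IL-17 in mouse T cells, stood at 3.65 and 5.16 CPM in knockout and 2.44 and 1.77 CPM in wild type libraries (log2 1.06, SE 0.47, edgeR adjusted p 0.417).

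Of 13 tested transcription factor genes of the Th17 lineage, edgeR called 0 and DESeq2 0 higher and 1 lower, with 1 higher and 2 lower at an unadjusted edgeR p and a median of 0.05. Ikzf3, the gene of Aiolos, was the 1 lower in DESeq2, at 223 and 156 CPM in knockout and 581 and 490 CPM in wild type libraries (log2 -1.5, SE 0.25, edgeR adjusted p 0.238). It was called by edgeR when wild type library 1 (adjusted p 0.0343) or wild type library 6 (0.00746) was left out. Runx1, a factor that binds the RUNX motif, had -0.72 (SE 0.21, edgeR adjusted p 0.385). Batf, an AP-1 factor needed for Th17 cells, stood at 65.9 and 114 CPM in knockout and 67.3 and 43.2 CPM in wild type libraries and overlapped.

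Among 14 tested genes of the published signature of pathogenic Th17 cells other than Il22, edgeR called 0 and DESeq2 3 higher and 0 lower, with 5 higher and 2 lower at an unadjusted edgeR p and a median of 0.39. The 3 were Cxcl3 (log2 4.95, SE 0.96, edgeR adjusted p 0.295), the chemokine gene Ccl3 at 14.5 and 40.7 CPM in knockout and 9.66 and 4.4 CPM in wild type libraries (1.97, SE 0.55, 0.384) and the granzyme gene Gzmb (1.18, SE 0.34, 0.385). edgeR called Gzmb when wild type library 1 was left out (adjusted p 0.00937) and Cxcl3 when knockout library 9 was (0.00721). Of 6 tested genes of the regulatory Th17 signature, 0 were called by edgeR, and 0 were higher and 2 lower in DESeq2, namely Ikzf3 and Il6st, with 0 higher and 2 lower at an unadjusted edgeR p and a median of -0.60. Maf, a factor of IL-10 producing T cells, had -0.67 (SE 0.31, edgeR adjusted p 0.423). Ikzf3 and Il6st also stand in the lists above, so these counts are not separate evidence.

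**Figure D3:**
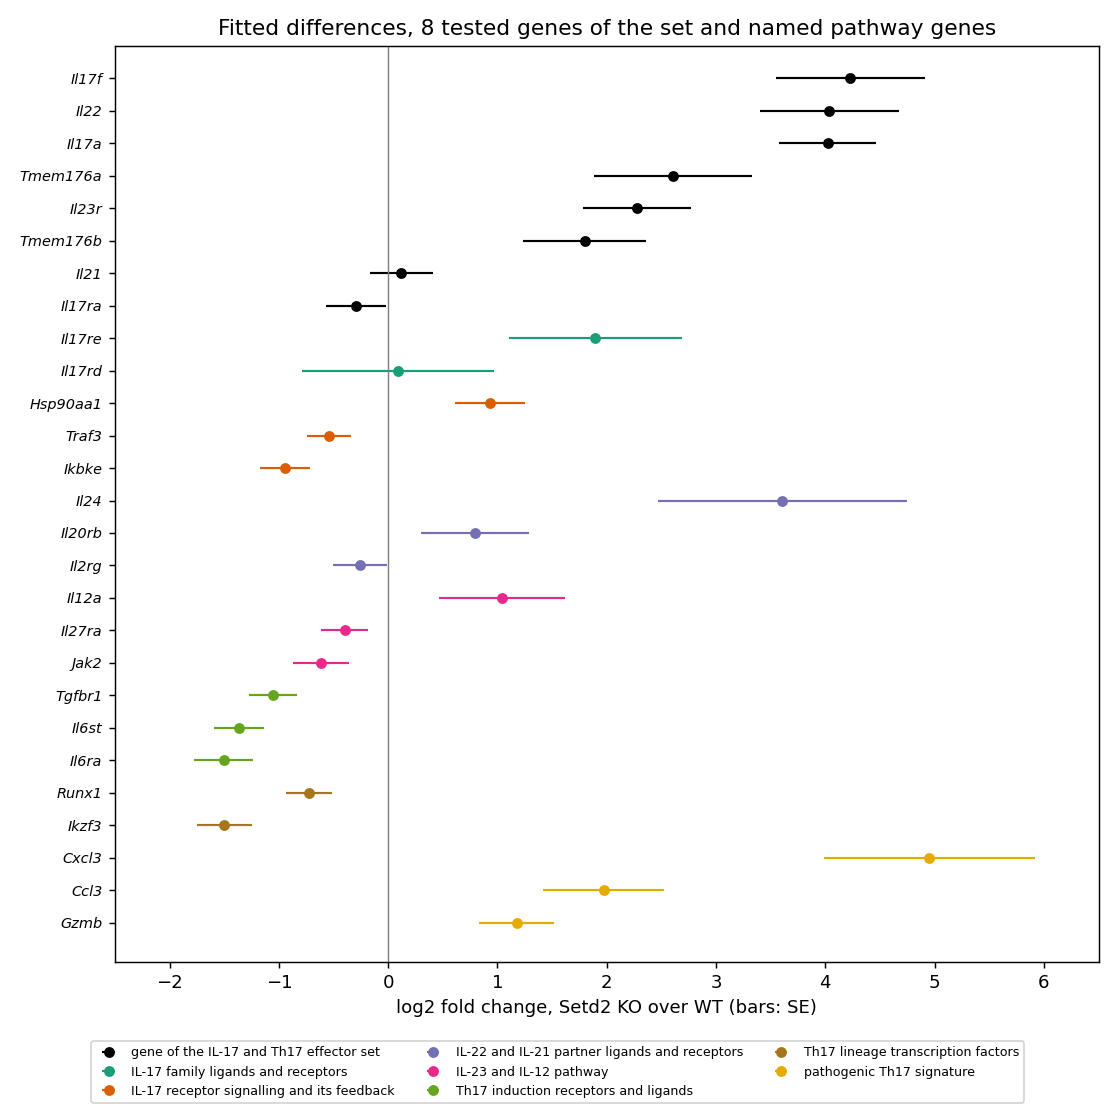
Fitted log2 fold change of knockout over wild type (horizontal axis) with its SE as bars, for the 8 tested members in black and for the 3 genes of smallest edgeR p of 7 pathway lists in colour (2 in the IL-17 family and transcription factor lists, each gene drawn once). Il17f, Il22 and Il17a lie near 4, and Il6st, Il6ra and Ikzf3 below -1.

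Genes of cells that make IL-17 without priming were read beside the cytokines. The gamma-delta T cell list had 4 of its 8 genes in the table (Trdc and the Tcrg constant genes were not analysed here), and they summed to 23.7 and 28.1 CPM in knockout and 13.7 and 13.3 CPM in wild type libraries. Of these, 5830411N06Rik, the mouse gene of the scavenger receptor SCART2, stood at 9.05 and 4.96 CPM in knockout, against 0.661 and 0.961 CPM in wild type libraries (log2 3.10, SE 0.53, edgeR adjusted p 0.238, DESeq2 adjusted p 0.000335). Cd163l1, its neighbour on chromosome 7 and the gene of SCART1, stood at 4.18 and 2.89 CPM in knockout, against 0.407 and 0.607 CPM in wild type libraries (log2 2.78, SE 0.61, edgeR adjusted p 0.277, DESeq2 adjusted p 0.0292). Both receptors are known in mice from gamma-delta T cells that make IL-17.

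Both genes were separated between genotypes like the cytokines. Their higher knockout library was replicate 9, as for Il23r (6.03 CPM in replicate 9 and 4.59 CPM in replicate 12). Il17a, Il17f and Il22 were higher in replicate 12. Blk, a kinase of B cells and of those gamma-delta cells, overlapped. It stood at 9.86 and 19.7 CPM in knockout and 12.1 and 11.5 CPM in wild type libraries. Sox13, the lineage factor of those gamma-delta cells, was under 1 CPM in each library, but higher in both knockout than in both wild type libraries. All 4 genes of the list had a positive log2 fold change (median 1.76), and 3 were higher in both knockout libraries. In bulk RNA fewer cells of a type and less RNA per cell cannot be told apart, and the part of such cells in the cytokine values was not tested.

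Markers of other cells were read in the same way. For innate lymphoid cells of type 3 all 8 markers were in the table, several of them also used by T cells, and their sum was 151 and 198 CPM in knockout and 224 and 230 CPM in wild type libraries. Ltb led it, at 70.1 and 75.8 CPM in knockout and 154 and 174 CPM in wild type libraries, whereas 5 of the 8 had a positive log2 fold change (median 0.48), with 2 higher and 2 lower at an unadjusted edgeR p. Natural killer markers, 8 of 8 in the table, summed to 96.6 and 50.5 CPM in knockout and 26.9 and 43.6 CPM in wild type libraries, led by Klrk1, which activated CD8 T cells also express, and the part of these cells was not tested. Of the 7 tested, 3 were higher in both knockout libraries (Eomes, Klrb1c and Klre1), 1 was lower, and the median log2 fold change was 0.74. Eomes, a factor of natural killer and CD8 T cells, stood at 28.7 and 22.1 CPM in knockout and 10.02 and 10.9 CPM in wild type libraries (log2 1.28, SE 0.25, edgeR adjusted p 0.261, DESeq2 adjusted p 0.0132). Zbtb16, the factor of innate-like T cells and the 1 that was lower, stood at 0.522 and 1.34 CPM in knockout and 3.31 and 3.79 CPM in wild type libraries.

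Tmem176a and Tmem176b are also dendritic cell genes. The 8 dendritic cell markers summed to 90.7 and 150 CPM in knockout and 84.9 and 71.1 CPM in wild type libraries, most of it H2-Ab1, which B cells share. H2-Ab1 was also the 1 marker of the 5 tested that was higher in both knockout libraries, at 77.8 and 135 CPM in knockout and 70.04 and 50.6 CPM in wild type libraries (log2 0.82, SE 0.31, edgeR adjusted p 0.413). Siglech, Clec9a and Cd209a stood at or under 0.2 CPM in each library, and Flt3 and Zbtb46 were lower in both knockout than in both wild type libraries, with Flt3 at 3.13 and 3.36 CPM in knockout and 5.34 and 4.75 CPM in wild type libraries. The 8 macrophage and monocyte markers summed to 6.21 and 8.05 CPM in knockout and 8.6 and 15.3 CPM in wild type libraries, led by Itgam, with Cd14 and Adgre1 under 1 CPM in each library. The 6 B cell markers summed to 255 and 430 CPM in knockout and 336 and 218 CPM in wild type libraries, highest in knockout replicate 12 like the Tmem176 genes, and their part in those values was not tested.

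**Figure D4:**
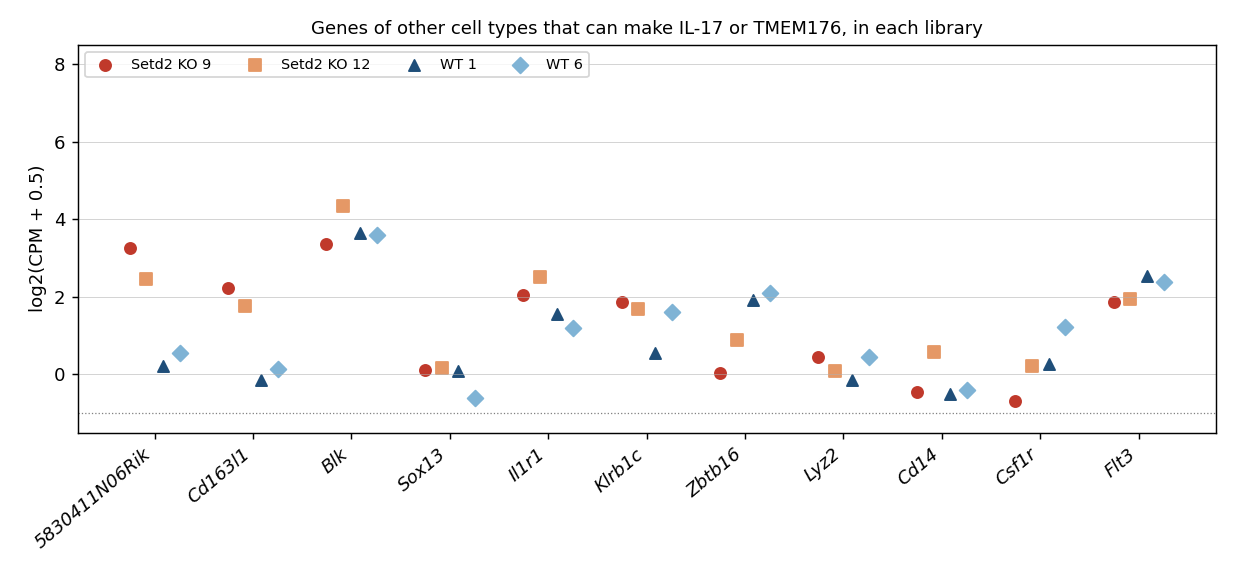
Levels, as log2(CPM + 0.5), of some marker genes of gamma-delta T cells, innate-like T cells, macrophages and dendritic cells, and of Il1r1, in each library. Knockout libraries stand left of wild type libraries, and a dotted line marks 0 CPM. The genes are a selection made after the values were seen. Among those not drawn are H2-Ab1 and Eomes, higher in both knockout libraries, and Zbtb46, lower in both. 5830411N06Rik and Cd163l1 are the markers with the widest gap between genotypes in the plot, and Lyz2, Cd14 and Csf1r stay near the bottom.

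Log2 fold changes of all genes were lower for longer genes, with a median of 0.38 for effective lengths under 1000 bases and -0.27 for 4000 bases and over, and the cytokine transcripts are short (effective lengths of 1159 bases for Il17a, 1168 for Il17f and 1035 for Il22). After subtraction of a per-library trend with length, the log2 fold changes were 3.71 for Il17a, 3.92 for Il17f, 3.68 for Il22, 2.23 for Il23r, 2.23 for Tmem176a and 1.46 for Tmem176b, and 0.15 for Il21 and -0.18 for Il17ra. Each of the short genes came out lower, and no member changed direction.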

How the data were processed

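RNA-seq was available for 4 libraries, 2 knockout and 2 wild type, grouped by title. Per the submitters' processing notes, Bowtie2 and RSEM were used with the builds GRCm38.p6 and mm10. Their versions, settings and strand handling were not given there. The authors deposited expected counts, which RSEM estimates by dividing shared reads, and an expression value without a stated unit, taken as FPKM made by the authors because its ratio to the count was nearly constant per gene between libraries up to 1 factor per library. The group averages in the table were not used.

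Expected counts were rounded to whole numbers, filtered with filterByExpr (minimum count 10, leaving 12816 genes) and scaled by TMM. The genotypes were compared by the edgeR 4.0.16 quasi-likelihood F test (R 4.3.3, with limma 3.58.1), in a two-sided way, with p-values adjusted over all genes by the Benjamini-Hochberg method and a threshold of 0.05. DESeq2 1.42.0 was an alternative. SEs were taken from the F statistic. Gene positions came from the RefSeq table of GRCm38.p6. On simulated data for this comparison, with 12816 genes, edgeR recovered 18% of 2-fold and 87% of 4-fold changes, with 3 false among 108 calls. DESeq2 recovered 31% and 92%, with 18 false among 141 calls. The changes were placed only in genes above a minimum mean count, with negative binomial noise at the dispersions fitted here. In the data themselves edgeR called 0 of the 5 tested members with a fold of at least 4, so these shares may not carry over.

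The members, the 10 pathway lists and the 10 marker lists were chosen with earlier results of these data known. Named genes are all members, Setd2, the 3 of smallest edgeR p in each pathway list, the most abundant of each marker list, the 5 profiles nearest Il17a and the nearest tested gene on each side of a member. Il17rb, Il17rc, Il17b, Il17c, Il17d, Traf3ip2, Il10, Il21r, Il12rb1, Stat3, Il23a, Il1r1, Batf and all further marker genes were named after their values were seen. Some genes that the rule would name are not reported here.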

Additional observations from a re-analysis of the deposited data

How the results depend on the processing

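All alternatives to the fit kept the direction of Il17a, Il17f, Il22, Il23r, Tmem176a and Tmem176b. With a library left out, log2 fold changes ran from 3.37 to 4.46 for Il17a, 3.48 to 5.52 for Il17f, 2.86 to 4.67 for Il22, 2.06 to 2.52 for Il23r, 0.92 to 3.35 for Tmem176a, 0.60 to 2.43 for Tmem176b, -0.31 to 0.44 for Il21 and -0.67 to 0.0028 for Il17ra. From the deposited expression values with a pseudocount of 1 they were 3.08 for Il17f and 1.08 for Il23r, and with 0.1 it was 1.98 for Il23r, since a pseudocount shrinks the difference of low genes. Over all genes, 1 higher and 0 lower became 48 and 33 without a filter and 88 and 97 in DESeq2, and 1 was lower with the length trend removed; leaving out knockout library 9 gave 6 and 2, knockout library 12 gave 0 and 0, wild type library 1 gave 113 and 81, and wild type library 6 gave 31 and 14. Of the members, edgeR called 0 with all libraries, where it called 1 of all 12816 genes. Without a filter it called 1 member, where it called 48 genes higher and 33 lower of 17424. Some fits with a library left out also called members. The members were picked on this contrast, so nothing is read from these counts. For pathway genes other than members, 0 higher and 0 lower became 3 and 5 in DESeq2, with 3 lower without a filter; the same 4 omissions in turn gave 1 and 0, 0 and 0, 2 and 4, and 0 and 1. The cause of these shifts in counts was not tested. No paired analysis was possible because knockout (9 and 12) and wild type (1 and 6) replicates have no number in common. Depth limits Ccl20, Il17f and Il23r in wild type, which had at most 31 counts in a library.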

Other observations

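Of 7 tested genes on CCL20 and CCR6 migration, edgeR and DESeq2 called 0, with 0 higher and 2 lower at an unadjusted edgeR p and a median log2 fold change of -0.48. Ccr6, the receptor for CCL20, stood at 4.47 and 5.68 CPM in knockout and 4.78 and 3.24 CPM in wild type libraries. Cxcr3, a receptor of Th1 cells, stood at 15.0 and 21.6 CPM in knockout and 31.7 and 33.6 CPM in wild type libraries (log2 -0.83, SE 0.25, edgeR adjusted p 0.386), and Ccr7, the receptor for homing to lymph nodes, had -0.92 (SE 0.34, edgeR adjusted p 0.413), and -1.34 with an edgeR adjusted p of 0.0317 when wild type library 1 was left out. Of 9 tested relatives of the TMEM176 proteins in the MS4A family, edgeR and DESeq2 called 0 and none passed an unadjusted edgeR p (median -0.01), with Ms4a6c at -0.96 (SE 0.44), Ms4a4c at 0.55 (SE 0.26) and Ms4a6b at -0.46 (SE 0.26).

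The remaining marker sums, in CPM, were 432 and 323 in knockout and 260 and 330 in wild type libraries for CD8 T cells (led by Cd8b1), 14.3 and 13.3 in knockout and 7.53 and 19.3 in wild type libraries for neutrophils and mast cells (led by Csf3r), and 2.32 and 7.43 in knockout and 6.36 and 20.2 in wild type libraries for erythroid cells (led by Hbb-bs). Thy1 was the most abundant of the CD4 T cell markers.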
